A study of Mus musculus with 37 samples.

Results

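The members described here are the stool bacteria that the taxonomy names Clostridia_vadinBB60_group, Clostridia_UCG-014, Christensenellaceae or Anaerovoracaceae, at any rank for the first pair of names and at family rank for the others. With earlier results of these data known, they were chosen by these names and not by a cut on their levels. They comprise 331 of the 6100 sequence variants in the table (177 of Clostridia_vadinBB60_group, 126 of Clostridia_UCG-014, 22 of Anaerovoracaceae and 6 of Christensenellaceae) and 388418 reads, 2.41% of all reads. The study sequenced amplicons spanning V3–V4 of the 16S rRNA gene, a bacterial marker gene, from stool DNA of adolescent C57Bl/6 mice, born to dams that drank either water alone (controls) or a 10% ethanol solution for the first 10 days of pregnancy followed by water (prenatal alcohol exposure, PAE). The 4 groups are control males (n = 11), PAE males (n = 10), control females (n = 7) and PAE females (n = 9), 1 stool library per animal as labelled. The sources used here name no dam, litter or cage for a library. P-values therefore measure only the spread between these libraries, some of which may come from littermates. Libraries are named by group and by the number in their label.

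Sequence variants are distinct amplicon sequences, and a share is the percent of a library's reads that fall to a variant or lineage. A share can move because the lineage changed or because the rest of the community did, and fewer bacteria of a lineage cannot be told apart from fewer gene copies per bacterium. Clostridia are a class of mostly anaerobic, fermenting Firmicutes that make up much of the mouse gut community. Clostridia_vadinBB60_group, named after a clone from an anaerobic digester, and Clostridia_UCG-014 are order-level lineages known mainly from environmental 16S sequences. Christensenellaceae are a low-abundance gut family whose type genus is Christensenella, and in humans they have been linked to host genotype and leanness. Anaerovoracaceae, earlier called Family XIII, hold the cultured genus Anaerovorax and the [Eubacterium] brachy and nodatum groups, whose named species were isolated from the mouth.

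In the taxonomy every member lay in Firmicutes and in the class Clostridia. Clostridia_vadinBB60_group and Clostridia_UCG-014 carried the same name at order, family and genus, and the species labels below them were of the kind "uncultured" or "unidentified", or were empty. Of the Clostridia_UCG-014 reads, 43.7% fell to 3 variants labelled as uncultured rumen bacteria. Anaerovoracaceae were split into [Eubacterium]_brachy_group (5103 reads), Family_XIII_UCG-001 (3208 reads), [Eubacterium]_nodatum_group (2771 reads), Family_XIII_AD3011_group (853 reads), Anaerovorax (286 reads) and variants with no genus name (189 reads). Christensenellaceae were split into Christensenellaceae_R-7_group (1252 reads) and a genus labelled uncultured (299 reads, called unclassified Christensenellaceae below), with 0 variants named Christensenella.

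The depth of a library was 102672 to 1813237 reads (median 293111), and intervals and limits for shares given below cover counting error only. A variant, genus or family was tested where it had at least 5 reads in at least 7 libraries. By that filter 44 of the 331 variants were tested: 24 of Clostridia_vadinBB60_group, 12 of Clostridia_UCG-014, 8 of Anaerovoracaceae and 0 of Christensenellaceae. They held 78.5% of the members' reads. Most of the others were rare, with 226 of the 331 variants found in 1 library only. The 4 tested variants with exactly 7 such libraries had 280 to 1288 reads, and the 9 that missed by 1 library had 104 to 3413. The largest untested variant, vadinBB60 variant 4, had 19762 reads in 4 libraries. Variants are numbered within each lineage by their total reads.

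A set of 9 libraries stood apart from the rest: PAE males 20, 21, 22, 23 and 24, PAE females 27 and 28, and control females 3 and 10. All 9 held 0 reads of Anaerovoracaceae, which allows a share of at most 0.000239% to 0.00292% depending on depth, while the other 28 libraries all held some. The same 9 held reads of Robinsoniella, a genus of another Clostridia family, in 9 of 9, against 0 of the 28. Rarefied to 102655 reads, they held 191 to 285 sequence variants of all bacteria, against 368 to 664 in the 28. No test was made between the 9 and the 28, since they were set apart by their composition. Lineage shares and called results are given with and without them.

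The label numbers fall into 4 runs, controls 1 to 10, PAE 11 to 19, PAE 20 to 29 and controls 30 to 37. Each run holds both sexes but only 1 exposure, so exposure and run cannot be told apart within a run. The sources used here do not say what the runs stand for.

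Clostridia_vadinBB60_group was the most abundant of the 4 lineages and the only one with reads in all 37 libraries, at 0.0312% to 6.12%. Its share ranged from 1.05% to 3.77% (median 2.16%) in control males and from 0.0312% to 6.12% (median 0.783%) in PAE males. In females it ranged from 0.571% to 2.77% (median 1.21%) in controls and from 0.373% to 2.77% (median 1.67%) in PAE. The groups overlapped in both sexes, and the 5 lowest libraries were PAE males 20 to 24. Mean shares were 2.20% ± 0.846 (SD, n = 11) in control males, 1.56% ± 1.96 (SD, n = 10) in PAE males, 1.68% ± 0.868 (SD, n = 7) in control females and 1.73% ± 0.902 (SD, n = 9) in PAE females. Without the 9 libraries the male means were 2.20% ± 0.846 (SD, n = 11) and 2.99% ± 1.88 (SD, n = 5), so the order of the male means turned. In the quasi-likelihood fit over all 60 families the PAE minus control difference was -0.42 ± 0.62 (log2, SE) in males and 0.10 ± 0.72 in females, with edgeR adjusted p of 0.708 and 0.999.

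**Figure D1:**
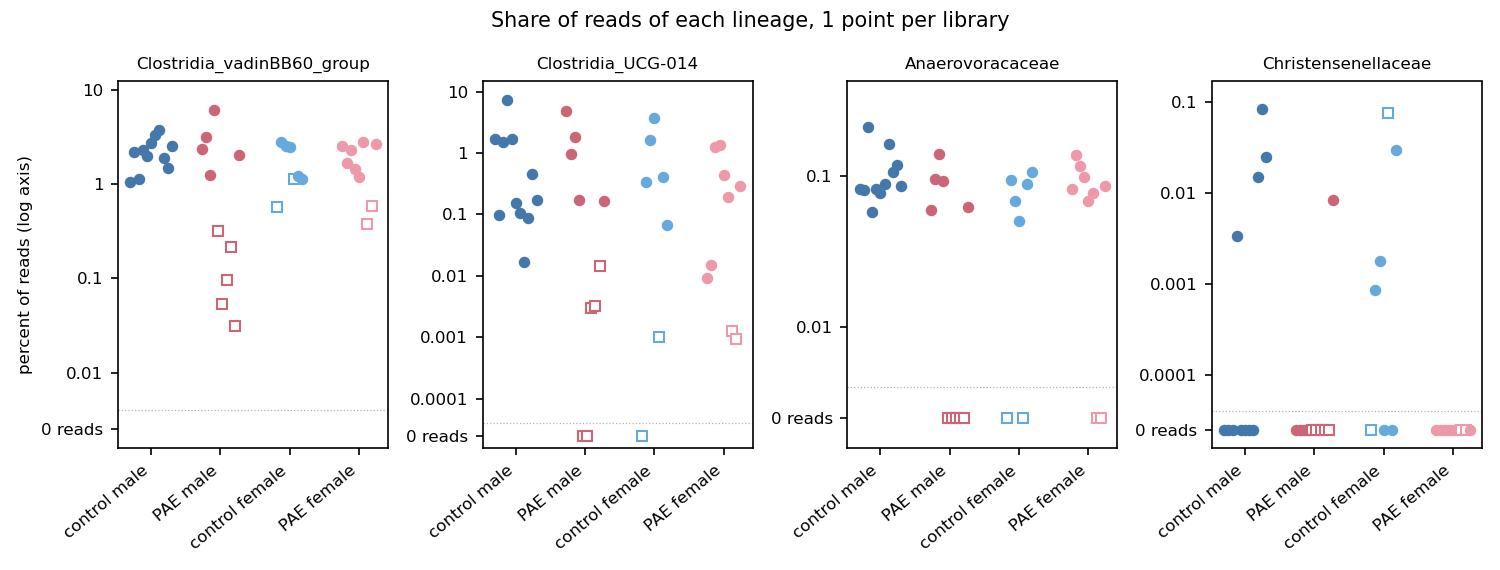
Percent of reads (log axis, with libraries at 0 reads in a separate row at the bottom) of each lineage in each library, by group. Open squares are the 9 libraries that stand apart. All 9 lie at 0 reads of Anaerovoracaceae, and the 5 lowest Clostridia_vadinBB60_group shares are PAE males. The groups overlap in each panel.

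Within Clostridia_vadinBB60_group the variant that led differed from library to library. Variant 1 led in 12 libraries, variant 3 in 10, and 12 further variants led in 1 or 2 libraries each. vadinBB60 variants 1 and 2 were the most abundant by total reads (29857 and 27456). Both had reads in 22 libraries; a further 5 libraries held 7 to 13 reads of variant 2 alone and 2 held 10 and 15 reads of variant 1 alone. In the 21 libraries with at least 100 reads of each, the ratio of variant 2 to variant 1 stayed between 0.782 and 1.15 (median 0.919). Over all 37 libraries the Spearman correlation of their centred log-ratios was 0.953, a description that includes libraries without either. In the 12 PAE libraries outside the 9, the share of variant 1 ran from 0.0361% to 0.834%.

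**Figure D2:**
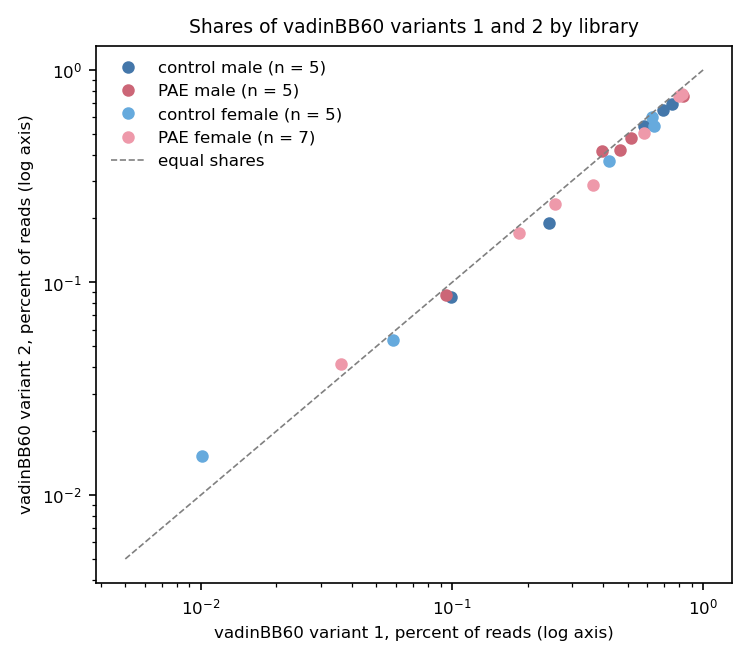
Share of vadinBB60 variant 2 against vadinBB60 variant 1 (percent of reads, log axes) in the 22 libraries with reads of both; the dashed line marks equal shares. Points of all 4 groups lie close to 1 line, with a median ratio of 0.919 where both have at least 100 reads.

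The pair was unevenly spread over the label-number runs, including runs of the same exposure. vadinBB60 variant 1 had reads in 10 of 10 libraries of controls 1 to 10 (mean 0.412%) and in 9 of 9 of PAE 11 to 19 (mean 0.363%). In controls 30 to 37 it had 25 reads in 2 of 8 libraries, and variant 2 had 0 reads in 8 of 8. In males the PAE minus control difference of variant 1 was 0.04 ± 1.69 (log2, SE; edgeR adjusted p = 0.991), and in females it was 0.42 ± 1.96 (adjusted p = 0.987). The same absence held for vadinBB60 variant 13, with 0 reads in controls 30 to 37, and nearly for variant 8, with 13 reads. When controls 30 to 37 were the only controls, 10 of 43 member variants were called in males (edgeR adjusted p under 0.05; 30.9% of all 550 variants tested), and variants 1, 2, 8 and 13 were then higher in PAE males, at log2 differences of 8.86 to 12.67 whose size depends on the near-zero controls. None of the 4 was called against all controls. UCG-014 variants 4 and 11 and Anaerovoracaceae variant 10 were also higher in that fit.

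vadinBB60 variants 17 (identifier fbc786b41a3571ac7fb40695620fc268) and 18 (ff01a402193bb87b75a8c76f74c10cba) showed the opposite distribution. Variant 17 had 0.159% in control male 31, 0.149% in 32, 0.184% in 33, 0.00703% in 35, 0.107% in 36, 0.247% in 37, and 0.0244% and 0.0638% in control females 30 and 34. It had 0 reads in the other 29 libraries. Every library with reads was therefore one of controls 30 to 37, and all 8 of these had reads, while controls 1 to 10 were at 0 like all PAE libraries. Variant 18 had 0.165%, 0.457%, 0.141%, 0.00551%, 0.0341% and 0.0488% in the same 6 males, in the same order, and 0.00621% and 0.0163% in the same 2 females. It too had 0 reads elsewhere. The ratio of variant 18 to variant 17 ran from 0.197 to 3.05 over the 6 libraries with at least 100 reads of each, so this pair shared its libraries but not a fixed ratio.

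Both variants passed the filter through controls alone (8 controls and 0 PAE libraries with at least 5 reads), so a direction lower in PAE was set by the selection. Their fits are given as a description and not as support for a difference. In males variant 17 was at least 857-fold lower than its control mean of 0.0776% and variant 18 at least 854-fold lower than 0.0774%, where the bound sets 3 reads over all PAE males (edgeR adjusted p = 0.00518 for each). Without control male 32 the bound of variant 18 was 436-fold, and without the 9 libraries the bounds were 468-fold and 467-fold. In females they were 184-fold and 46.9-fold (adjusted p = 0.0208 and 0.0294). Without control female 34 they were 59.4-fold and 15.1-fold, at adjusted p of 0.0512 and 0.0801. Without the 9 libraries, all of which lacked these variants, adjusted p was 0.152 for both in males, and 0.0738 and 0.0927 in females. limma on centred log-ratios gave adjusted p of at least 0.0635 for both in both sexes, and at least 0.510 with the label-number run as a random block. Against controls 1 to 10 alone both groups are at 0 and no difference could be fitted.

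**Figure D3:**
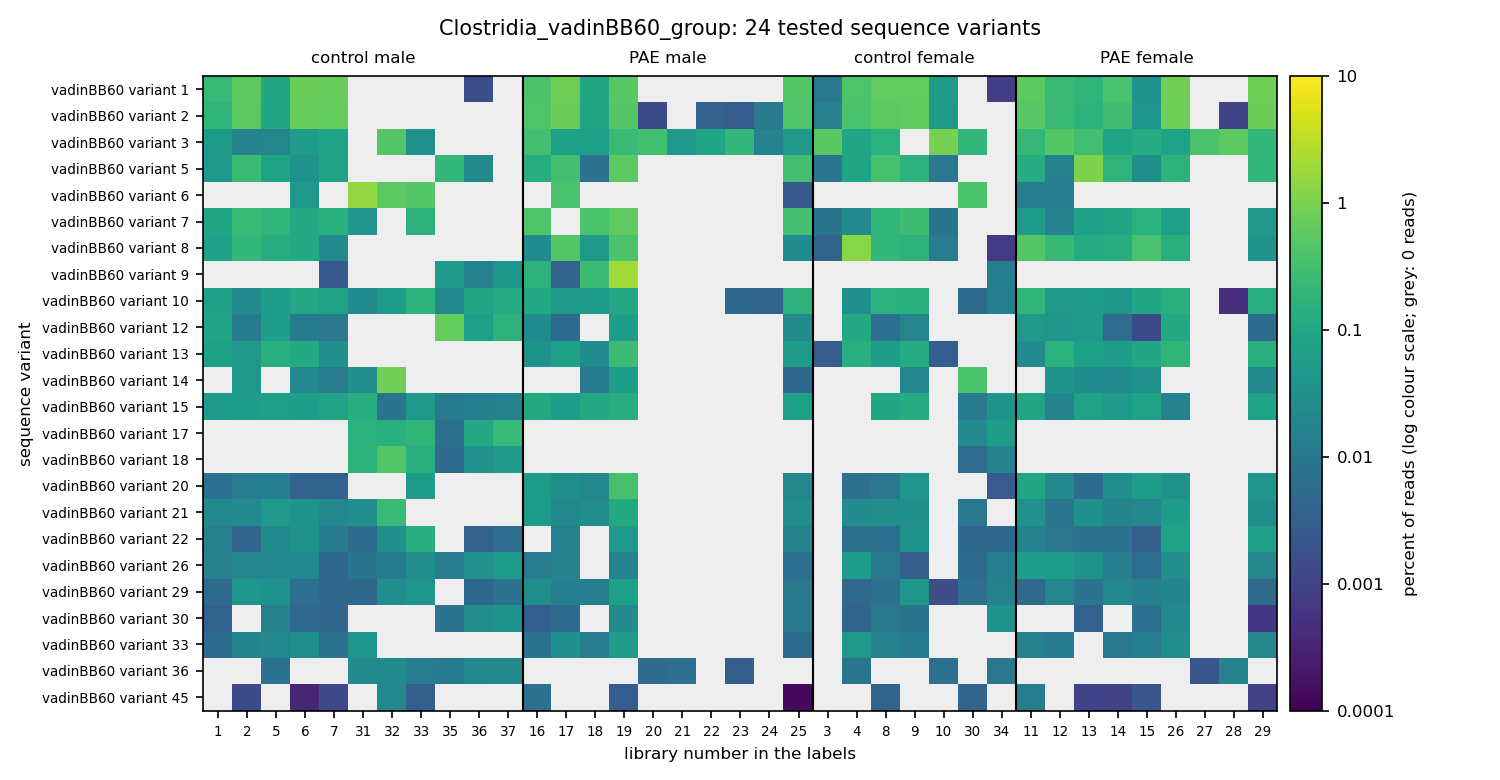
Share of each of the 24 tested Clostridia_vadinBB60_group variants (rows, numbered by total reads) in each library (columns, grouped by sex and exposure), as percent of reads on a log colour scale; grey is 0 reads. Variants 17 and 18 have reads only in controls 30 to 37, where variants 2 and 13 have none, and variant 3 is present in all of PAE males 20 to 24.

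Of the tested variants only vadinBB60 variant 3 had reads in all 9 libraries, while vadinBB60 variant 2 had reads in 7 of them and variant 36 in 6. Variant 3 made up 53.1% to 99.4% (median 93.7%) of the Clostridia_vadinBB60_group reads in the 9, against 0% to 28.6% (median 3.57%) in the other 28. The lowest of the 9, PAE male 24, had 32 reads of the lineage in all, and its 53.1% has a 95% Wilson interval of 36.4% to 69.1%. In PAE female 27 the value was 99.4%, with an interval of 99.0% to 99.7%. As a share of all reads, variant 3 was not low in these libraries, at 0.0166% to 0.962% (median 0.312%), against 0% to 0.476% (median 0.0740%) in the 28. Of the 24 tested variants of the lineage, 14 had no read in any of the 9. Its mean share was 0.0665% ± 0.136 (SD, n = 11) in control males and 0.142% ± 0.116 (SD, n = 10) in PAE males (edgeR adjusted p = 0.606). In females the PAE minus control difference was -0.70 ± 1.47 (log2, SE; edgeR adjusted p = 0.987). With limma on centred log-ratios variant 3 was called higher in PAE males, at 4.75 ± 1.64 (log2, SE; adjusted p = 0.0419). The call was absent with the run as a random block. Variant 3 had reads in 9 of 10 libraries of controls 1 to 10 but in 3 of 8 of controls 30 to 37. It had reads in 9 of 9 of PAE 11 to 19 and 10 of 10 of PAE 20 to 29.

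**Figure D4:**
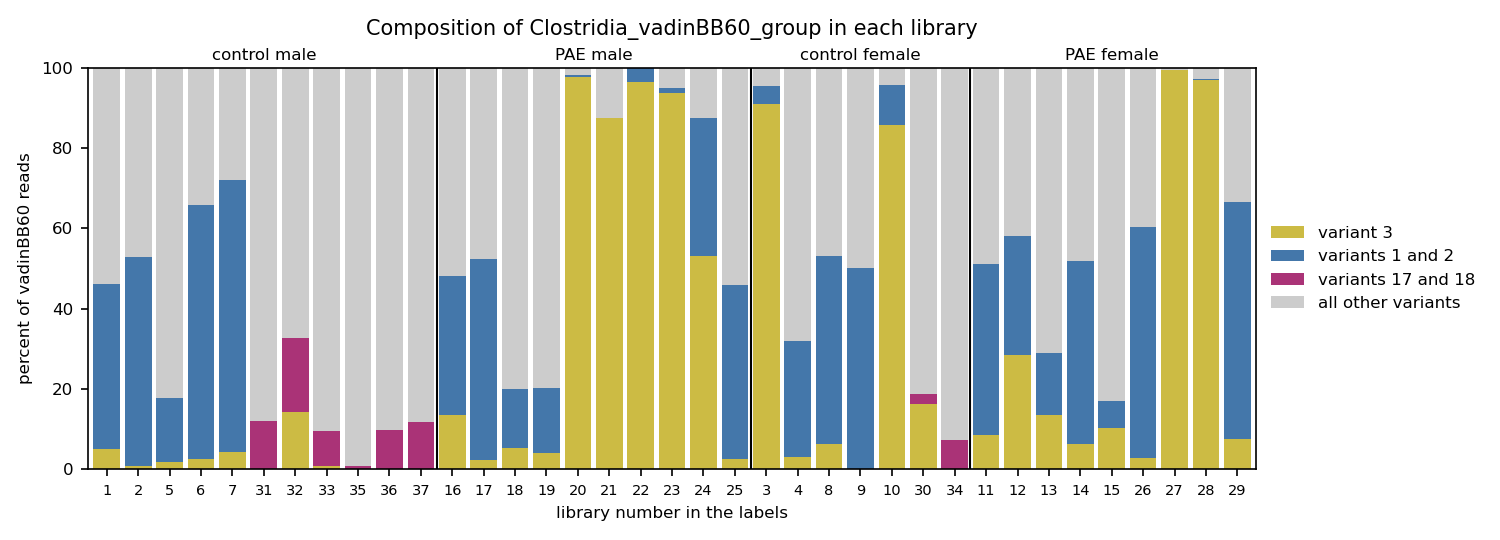
Make-up of Clostridia_vadinBB60_group in each library: bars start at 0 and add to 100% of the lineage's reads. Variant 3 (yellow) is the largest part in PAE males 20 to 24, PAE females 27 and 28 and control females 3 and 10, variants 1 and 2 (blue) lead in many others, and variants 17 and 18 (purple) appear only in controls 30 to 37.

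Clostridia_UCG-014 varied more between animals than Clostridia_vadinBB60_group did, from 0 reads in 3 libraries to 7.28% in control male 6. Its share ranged from 0.0168% to 7.28% (median 0.171%) in control males and from 0% to 4.86% (median 0.0896%) in PAE males. In females it ranged from 0% to 3.72% (median 0.336%) in controls and from 0.000956% to 1.37% (median 0.192%) in PAE. The groups overlapped almost wholly. Mean shares were 1.20% ± 2.13 (SD, n = 11) and 0.797% ± 1.55 (SD, n = 10) in control and PAE males, and 0.882% ± 1.38 (SD, n = 7) and 0.399% ± 0.544 (SD, n = 9) in control and PAE females, each SD being larger than its mean. At family rank the difference was -0.55 ± 1.36 (log2, SE; edgeR adjusted p = 0.863) in males and -1.03 ± 1.55 (adjusted p = 0.922) in females. In the 9 libraries the lineage was at 0.0146% or less. Without them the male means were 1.20% in controls and 1.59% in PAE, and the female means 1.23% and 0.512%. By run the medians were 1.56% in controls 1 to 10, 0.953% in PAE 11 to 19, 0.129% in controls 30 to 37 and 0.00310% in PAE 20 to 29.

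UCG-014 variant 1, with 31.5% of the lineage's reads, led in 11 of the 34 libraries with reads. It ranged from 0% to 4.08% (median 0.0140%) in control males, where control male 6 held 11950 of the 14954 reads, and from 0% to 0.482% in PAE males. In control females it reached 2.69% in control female 9, and in PAE females 0.233%. Its PAE minus control difference was -2.40 ± 1.97 (log2, SE; edgeR adjusted p = 0.583) in males and -3.28 ± 2.24 (adjusted p = 0.640) in females. UCG-014 variant 2 was patchier still, with reads in 12 libraries and shares of 2.24% in PAE male 16, 2.04% in control male 6 and 0.898% in PAE female 14. UCG-014 variant 3 had reads in 15 libraries and 0 reads in all of PAE 20 to 29. Neither was called in either sex by edgeR, at 0.45 ± 2.18 and 2.22 ± 2.71 (log2, SE) in males and females for variant 2, and 0.40 ± 1.93 and 0.95 ± 2.28 for variant 3.

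The called Clostridia_UCG-014 variants, 3 in number, were of low abundance. None of them was called in either sex by limma with the label-number run as a random block. UCG-014 variant 20 (identifier 1d42257239e8407396cd155b16ad2a3f, 418 reads in all) had 0.0153%, 0.0123%, 0.0266% and 0.0145% in control males 1, 2, 6 and 7, and 0.0118%, 0.0296% and 0.0660% in control females 4, 8 and 9. It had 0 reads in the other 30 libraries, so all of its 7 libraries were in controls 1 to 10. It too passed the filter through controls alone (7 controls and 0 PAE libraries), so its fit is likewise only a description. It was at least 69.0-fold lower in PAE males (edgeR adjusted p = 0.0173) and at least 224-fold lower in PAE females (adjusted p = 0.0208), on 172 and 246 control reads. The female bound was 101-fold without control female 9, and the male bound 37.7-fold without the 9 libraries. DESeq2 did not call it within either sex (adjusted p = 0.165 and 0.113), and without the 9 libraries edgeR's adjusted p was 0.204 and 0.0738.

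UCG-014 variant 24 (9b10f4bb6f746636822552b28d3dbf39, 367 reads) was called lower in males only, at least 38.3-fold, from 113 reads in control males 6, 7 and 36 to none in PAE males (0 of 10 libraries), with an edgeR adjusted p of 0.0222. It passed the filter through 5 controls and 3 PAE libraries, and these PAE libraries were all female. Among males it thus passed through controls alone, so its male fit is likewise only a description. The bound was 19.7-fold without control male 7 and 20.9-fold without the 9 libraries. In females it had 0.0125% and 0.00491% in controls 9 and 34, and 0.0230%, 0.00862% and 0.00434% in PAE 13, 14 and 29. DESeq2 gave an adjusted p of 0.272 for the male difference, and without the 9 libraries edgeR's was 0.225. UCG-014 variant 10 (ab562aadf89a7b6e0439c1309aac25c4) was the 1 member called higher in PAE, in females. It had 0 reads in 7 of 7 control females and 0.0517%, 0.0426%, 0.00932%, 0.00524% and 0.00450% in PAE females 13, 14, 15, 26 and 29, at least 150-fold higher on the mean (edgeR adjusted p = 0.0270). In males it was as frequent in controls as in PAE, with mean shares of 0.0121% and 0.0120% and a difference of 0.03 ± 1.62 (log2, SE; adjusted p = 0.992). The test of the difference between the sexes did not pass, at 8.55 ± 2.80 (log2, SE; adjusted p = 0.101). Its female call was lost without control female 34 (adjusted p = 0.0625, bound 73.5-fold) and without the 9 libraries (adjusted p = 0.0674), and without PAE female 13 the bound was 91.5-fold.

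**Figure D5:**
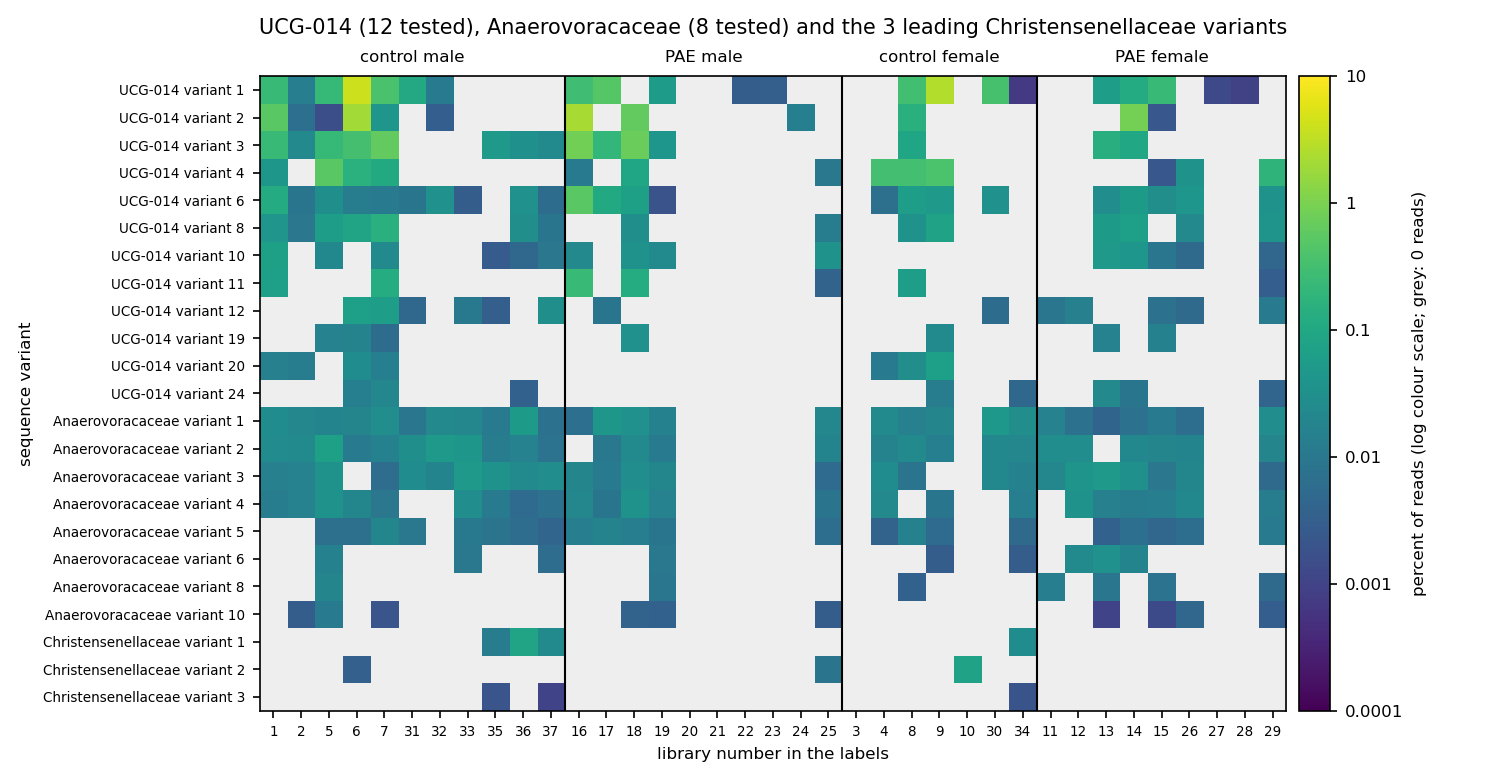
Share of the 12 tested Clostridia_UCG-014 variants, the 8 tested Anaerovoracaceae variants and the 3 most abundant Christensenellaceae variants (rows) in each library (columns), as percent of reads on a log colour scale; grey is 0 reads. Anaerovoracaceae are empty in the 9 libraries that stand apart, UCG-014 variants are patchy, and UCG-014 variant 20 has reads only in controls 1 to 10.

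Anaerovoracaceae were the steadiest lineage outside the 9 libraries, at 0.0505% to 0.212% (median 0.0872%) in the other 28. The 9 are all the libraries without reads of this lineage. Its steadiness, and its means without the 9, are therefore partly set by that choice. In control males the share ran from 0.0580% to 0.212% (median 0.0854%). In PAE males it ran from 0% to 0.141% (median 0.0300%), with PAE males 20 to 24 at 0 reads and the other 5 at a median of 0.0933%. In control females it ran from 0% to 0.106% (median 0.0685%) and in PAE females from 0% to 0.137% (median 0.0825%). The male means were 0.105% ± 0.0449 (SD, n = 11) and 0.0452% ± 0.0524 (SD, n = 10), a control to PAE ratio of 2.32. Without the 9 libraries they were 0.105% ± 0.0449 (SD, n = 11) and 0.0904% ± 0.0328 (SD, n = 5). The female means were 0.0582% ± 0.0437 (SD, n = 7) and 0.0741% ± 0.0469 (SD, n = 9). At family rank the difference was -1.06 ± 1.21 (log2, SE; edgeR adjusted p = 0.631) in males and 0.20 ± 1.38 (adjusted p = 0.999) in females. With limma on centred log-ratios and all libraries the family was called lower in PAE males, at -4.17 ± 1.45 (log2, SE; adjusted p = 0.0499).

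The 3 most abundant Anaerovoracaceae variants came from different genera. Anaerovoracaceae variant 1, of the [Eubacterium]_nodatum_group, had reads in all 28 libraries outside the 9, at 0.00404% to 0.0532%. Variant 2, of the [Eubacterium]_brachy_group, and variant 3, of Family_XIII_UCG-001, each had reads in 26 of the 28. None of the 8 tested variants was called in either sex by edgeR. With limma on centred log-ratios Anaerovoracaceae variant 2 was called lower in PAE males, at -3.76 ± 1.12 (log2, SE; adjusted p = 0.0184), on means of 0.0279% in controls and 0.00641% in PAE. The PAE male mean was 0.0128% without the 9 libraries. Anaerovorax itself had 286 reads, all in controls 34, 35, 36 and 37.

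Christensenellaceae were the rarest lineage, with 1551 reads in 9 libraries. They had reads in 4 of 11 control males (0.00341% to 0.0850%), 1 of 10 PAE males (0.00850%), 4 of 7 control females (0.000874% to 0.0775%) and 0 of 9 PAE females. The controls with reads therefore outnumbered the PAE libraries with reads, while most libraries of 3 groups were at 0. In females the family was at least 229-fold lower in PAE than the control mean of 0.0157% ± 0.0293 (SD, n = 7), with an edgeR adjusted p of 0.0476. The call held in 21 of the 37 leave-one-out fits. It was lost without any 1 of control females 8 and 10, control males 35 and 37, PAE females 11, 12, 13, 14, 26, 27 and 29, and PAE males 16, 17, 18, 22 and 25. The highest adjusted p, 0.131, came without control female 10, which held 151 of the 697 reads, and the bound was then 78.9-fold. It was 53.7-fold without the 9 libraries (adjusted p = 0.271). Of the 7 libraries through which the family passed the filter, 6 were controls, so a direction lower in PAE was largely set by the selection. In males the means were 0.0117% ± 0.0257 (SD, n = 11) and 0.000850% ± 0.00269 (SD, n = 10), and the difference was -3.19 ± 1.75 (log2, SE; adjusted p = 0.342). The difference between the sexes was not called by edgeR (adjusted p = 0.343). DESeq2 called it, at -20.7 ± 3.94 (log2, SE; adjusted p = 8.6e-06). It also called PAE females lower than PAE males (adjusted p = 1.3e-11), where PAE females held 0 reads and only 1 PAE male had any. For the mean of both sexes, a contrast added after the other results were seen, the log2 difference was -6.05 ± 1.46 (SE; edgeR adjusted p = 0.00376), with PAE females at 0. That call held in all 37 leave-one-out fits, which do not undo the selection. It did not hold without the 9 libraries (edgeR adjusted p = 0.0796) or with controls 1 to 10 alone (0.0595). limma on centred log-ratios did not call the family for this mean either, at adjusted p of 0.0610, and 0.892 with the run as a random block.

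Different members of the family were behind the reads of different libraries. Christensenellaceae variant 1, of the R-7 group, held 1248 of the 1551 reads, all in control female 34 (0.0270%) and control males 35, 36 and 37 (0.0129%, 0.0842% and 0.0238%). Christensenellaceae variant 2, of the unclassified genus, had 151 reads (0.0775%) in control female 10, 63 reads (0.00850%) in PAE male 25 and 10 reads (0.00341%) in control male 6. Variant 3 had 54 reads in controls 34, 35 and 37. None of the 3 passed the filter alone. Summed as a genus, unclassified Christensenellaceae had 203 reads in 3 of 7 control females and 0 in PAE females, at least 169-fold lower (edgeR adjusted p = 0.0138). Of the 7 libraries through which this genus passed the filter, 6 were controls, so a direction lower in PAE was largely set by the selection. Without control female 10 the bound was 8.83-fold (adjusted p = 0.134), and without the 9 libraries 6.01-fold (adjusted p = 0.266). The difference of the exposure contrasts, female minus male, was -9.76 ± 2.50 (log2, SE; adjusted p = 0.0368). It was called in 27 of the 37 leave-one-out fits and lost without any 1 of control female 10, PAE females 11, 12, 13, 14, 15 and 26, and PAE males 20, 21 and 25. Without PAE male 25, which held all 63 reads of the PAE males, the adjusted p was 0.9997.

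Counted over the members, 9.09% of the tested variants were called in each sex. The counts include the variants that passed the filter through controls alone, so nothing is read from them. In males 4 of 44 variants were called, against 12.1% of all 553 variants tested, and all 4 were lower, against 7.96% of all variants called lower. The members' median log2 difference was -0.66, beside -0.71 over all variants. In females 4 of 44 were called, against 12.3% of all, with 3 lower (8.32% of all) and 1 higher (3.98% of all), and the medians were 0.26 for both the members and all variants. For the mean of both sexes 4 of 44 were called (15.2% of all): vadinBB60 variants 17 and 18 and UCG-014 variant 20 lower (10.3% of all were called lower) and UCG-014 variant 10 higher (4.88% of all were called higher). Without the 9 libraries 0 of 44 were called in males (0.366% of 546 variants) and 0 in females (0% of all), with 7 members at an unadjusted p under 0.05 in each. For the mean of both sexes 5 of 44 were then called (10.4% of all): the same 4 and vadinBB60 variant 36, lower at -8.02 ± 1.78 (log2, SE; edgeR adjusted p = 0.0104), which was not called with the 9 libraries in the fit and whose PAE reads all lie in 5 of them.

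In the main edgeR fit, differences between the sexes were not called in any member variant. The difference of the exposure contrasts was called in 0 of 44 by edgeR (0% of all 553 variants), where DESeq2 called 1 (29 over all variants). In edgeR 5 of 44 had an unadjusted p under 0.05, beside 68 of all 553. Between females and males edgeR called 0 of 44 in controls (0.904% of all) and 0 of 44 in PAE (0% of all), each with 3 members at an unadjusted p under 0.05 and 1 call by DESeq2. Over all variants the unadjusted counts were 52 in controls and 31 in PAE, and DESeq2 called 24 and 13. The member that DESeq2 called for the exposure difference and between PAE females and males was vadinBB60 variant 9, named after its values were seen. It had 10650 reads in 4 of 10 PAE males (9746 of them in PAE male 19) and 0 reads in 9 of 9 PAE females, and edgeR gave an adjusted p of 0.0851 between PAE females and males. DESeq2 also called it lower in PAE than in control females (adjusted p = 1.1e-09) and for the mean of both sexes (0.000394). In females edgeR called it with TMMwsp scaling (adjusted p = 0.0453) and on females alone (0.0421), but not in the main fit. Among control females only control female 34 held reads of it, 263 in number. UCG-014 variant 10 was the 1 that DESeq2 called between control females and males.

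At genus rank 8 member genera were tested. In males 0 of 8 were called (11.6% of all 112 genera), and 0 had an unadjusted p under 0.05; DESeq2 called 0. In females 1 of 8, unclassified Christensenellaceae, was called (2.68% of all), and it was lower (1.79% of all were called lower). The same genus was the 1 of 8 called for the difference of the exposure contrasts (3.57% of all, and 2.68% in the negative direction). It was also the 1 of 8 called for the mean of both sexes (13.4% of all, and 5.36% in that direction), a contrast added after the other results were seen, at -4.34 ± 1.22 (log2, SE; edgeR adjusted p = 0.00988). That call was lost without control female 10 (adjusted p = 0.122) and without the 9 libraries (0.415). The 5 tested genera of Anaerovoracaceae lay between -1.82 and 0.04 (log2) in males and between -1.38 and 2.60 in females, with adjusted p of at least 0.322 and 0.650. [Eubacterium]_brachy_group was at 0.0459% ± 0.0283 (SD, n = 11) in control males and 0.0164% ± 0.0209 (SD, n = 10) in PAE males, a difference of -1.68 ± 1.13 (log2, SE; adjusted p = 0.331). The PAE male mean was 0.0328% ± 0.0174 (SD, n = 5) without the 9 libraries. limma on centred log-ratios, with all 37 libraries, called that genus lower in PAE males, at -3.36 ± 1.13 (log2, SE). At family rank 0 of 4 were called in males by edgeR (5% of all 60 families; 0 unadjusted, 0 by DESeq2 and 1 by limma), 1 of 4, Christensenellaceae, in females (1.67% of all, and 1.67% in that direction), and the same family for the mean of both sexes (10% of all, and 5% in that direction).

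The 13 other families of the class Clostridia that passed the filter gave a frame for these values. By edgeR 0 of the 13 were called in either sex, with a smallest adjusted p of 0.160 in males and 0.286 in females. Unadjusted p was under 0.05 for 3 and 1 of them, and DESeq2 called 0 and limma 2 in each sex. Their median log2 difference was -0.37 in males and 0.16 in females. Over all 60 families it was -0.20 and 0.16, and over the 4 member families -0.80 and -0.47.

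The number of member variants with reads, rarefied to 102655 reads, was 43.7 ± 13.5 (SD, n = 11) in control males and 22.7 ± 20.8 (SD, n = 10) in PAE males. In females it was 29.7 ± 16.0 (SD, n = 7) in controls and 28.6 ± 15.8 (SD, n = 9) in PAE. The male groups overlapped, at 24.8 to 62.0 and 2.00 to 54.7. Without the 9 libraries the counts were 41.9 ± 7.42 (SD, n = 5) in PAE males, 37.3 ± 11.2 (SD, n = 5) in control females and 35.8 ± 7.73 (SD, n = 7) in PAE females. These counts were not tested, and they move with the number of all bacterial variants, which was 548 ± 113 (SD, n = 11) in control males and 365 ± 151 (SD, n = 10) in PAE males.

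Across libraries the lineages did not rise and fall as 1 unit. Over 37 libraries the Spearman correlation of centred log-ratios was 0.688 between Clostridia_vadinBB60_group and Anaerovoracaceae, and over the 28 libraries outside the 9 it was 0.619. Between Clostridia_UCG-014 and Anaerovoracaceae it was 0.428 over 37 and -0.276 over 28. Between Clostridia_UCG-014 and Clostridia_vadinBB60_group it was 0.168 over 37 and -0.411 over 28. These are descriptions over libraries that share a total of 100%, depth and run.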

How the data were processed

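Per the labels, stool DNA was amplified over the V3–V4 region and sequenced paired-end (2 × 250 cycles) on an Illumina NovaSeq. The deposited table holds raw counts of reads per sequence variant, with a deposited taxonomy. Cutadapt, Bowtie2 and GRCm39 are listed, without roles, in the submitters' processing notes; the denoiser, the classifier and its taxonomy release are not stated there. Rows without taxonomy, unassigned, eukaryotic, plastid or mitochondrial were left out, which kept 6085 of 6100 rows and 99.99% of 16140229 reads. Labels exchange the names of 2 control male libraries, which does not change their group.

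Counts were fitted for variants (553 tested), genera (112) and families (60) with edgeR 4.0.16 in R 4.3.3 (TMM scaling, quasi-likelihood F-test, 4 group means, all 37 libraries), with Benjamini-Hochberg adjustment over all features of the rank; called means an adjusted p under 0.05. The standard error is the log2 difference divided by the square root of F. The script was tested on simulated data. A group at 0 reads was given a bound from 3 reads over the group. Alternatives were DESeq2 1.42.0, TMMwsp, library totals, centred log-ratios (0.5 added) fitted with limma 3.58.1, with and without the run as a random block, other filters, all rows, depth as covariate, 1 sex alone, each run alone, and leaving out libraries.

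Named were the 4 lineages, their tested genera, the 3 variants of each lineage with the most total reads and every called variant. Members and lists were chosen with earlier results of these data known.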

Additional observations from a re-analysis of the deposited data

Results flagged for a closer look

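Only groups of 4 to 10 libraries were examined for outlying libraries, so control males, a larger group, were left out. Of 66 such groups, 21 held a library far from the rest of its group (Dixon's ratio above its 95% critical value), where chance flags about 1 in 20. Shares with many zeros flag more easily. Among lineage shares the flagged values were Clostridia_UCG-014 in PAE male 16 (4.86%), Clostridia_vadinBB60_group in PAE male 19 (6.12%), and Christensenellaceae in PAE male 25 (0.00850%) and control female 10 (0.0775%). Among genera, control female 8 was far from its group for Family_XIII_AD3011_group (0.0157%) and unclassified Anaerovoracaceae (0.00179%), and unclassified Christensenellaceae was high in PAE male 25 (0.00850%) and control female 10 (0.0775%).

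Among Christensenellaceae variants, variant 1 (0.0270%) and variant 3 (0.00199%) were high in control female 34, and variant 2 was high in PAE male 25 (0.00850%) and control female 10 (0.0775%). UCG-014 variant 1 was high in control female 9 (2.69%), UCG-014 variant 2 in PAE male 16 (2.24%), control female 8 (0.151%) and PAE female 14 (0.898%), and UCG-014 variant 3 in control female 8 (0.0927%). UCG-014 variant 24 was high in control female 9 (0.0125%) and PAE female 13 (0.0230%). Control female 34 was high for vadinBB60 variant 17 (0.0638%) and vadinBB60 variant 18 (0.0163%).

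The exposure contrast of unclassified Christensenellaceae was called different between the sexes, at -9.76 (log2, female minus male, edgeR adjusted p = 0.0368). Reads were found in 3 of 7 control females, 0 of 9 PAE females, 4 of 11 control males and 1 of 10 PAE males. The call held in only 27 of the 37 leave-one-out fits. It was lost without control female 10, and without PAE male 25 the edgeR adjusted p was 0.9997.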

How the results depend on the processing

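Counts below are of called members. DESeq2 called 2 variants in males, and 1 each for the exposure difference between sexes, females against males in controls, and the same in PAE; it gave no adjusted p for unclassified Christensenellaceae. limma on centred log-ratios called 3 variants in males (95 overall), none of them among the 4 that edgeR called. They were vadinBB60 variant 3, higher, and Anaerovoracaceae variant 2 and vadinBB60 variant 26, both lower. vadinBB60 variant 26 was at -3.56 ± 1.09 (log2, SE; limma adjusted p = 0.0216). The same limma fit called 0 variants in females (9 overall), 1 genus and 1 family in males, and 0 genera and 0 families in females. For the mean of both sexes it called 5 variants (80 overall). These were vadinBB60 variant 3 and Anaerovoracaceae variant 2, which edgeR did not call, and otherwise variants that edgeR called. The same limma fit called 0 genera for the exposure difference, 0 genera and 0 families for the mean of both sexes, and 2 other Clostridia families in each sex. With the run as a random block limma called 0 members in each comparison reported here, at any rank. At 1 read in 2 libraries, 54 of 105 variants were called in males (574 of 1206 overall), 44 in females (464 overall) and 44 for the mean (486 overall), 2 genera in males, 3 for the mean and 3 other Clostridia families in each sex. At 10 reads in 18 libraries 0 of 23 variants (8, 2 and 6 of 309 overall in males, in females and for the mean), 0 of 6 genera and 0 of 3 families were called. With controls 1 to 10 alone 1 variant, UCG-014 variant 20, was called in males, in females and for the mean (10, 6 and 49 of 536 overall), 0 genera for the exposure difference, and 0 genera and 0 families for the mean. With controls 30 to 37 alone 10, 2 and 7 of 43 variants were called (170, 61 and 155 of 550 overall), 0 genera in females, for the exposure difference or for the mean, and 2 other Clostridia families in males. With PAE 11 to 19 alone 0 variants, genera or families were called in females, 0 variants in males and 0 genera for the exposure difference (0 and 2 of 551 variants overall in females and males). With PAE 20 to 29 alone 8, 0 and 11 variants were called in males, in females and for the mean (124, 9 and 129 of 553 overall), 0 genera or families in females, 0 genera for the exposure difference or the mean, and 4 and 2 other Clostridia families in males and females; UCG-014 variant 3 then turned from 0.40 to -12.23 in males (adjusted p = 0.0279), where those PAE males hold 0 reads. Without PAE males 20 to 24 and PAE females 26 to 29, or without the 9 libraries (chosen after seeing the data), 0 variants were called within either sex, 0 genera, and 0 families in females or for the mean. Depth as covariate called 1 variant between PAE females and males, and females alone 0 genera.

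Leaving out 1 library at a time, called variants ranged from 4 to 6 in males, 1 to 5 in females, 0 to 1 for the exposure difference, 3 to 6 for the mean, 0 to 0 between the sexes in controls and 0 to 1 in PAE. Called genera ranged from 0 to 0 in males, 0 to 1 in females, 0 to 1 for the exposure difference and 0 to 1 for the mean, families from 0 to 1 in males, 0 to 1 in females and 1 to 1 for the mean, and other Clostridia families from 0 to 1 in each sex. For single named members, 1299 values kept direction and side of the threshold, 114 lost and 7 gained the call, and 1 turned. TMMwsp moved the median log2 difference of all variants from -0.71 to -0.89 in males and from 0.26 to 0.02 in females, and library totals to 0.41 in females. No paired analysis was possible because no library number is shared between groups. Low counts limit the called UCG-014 variants and Christensenellaceae. The causes of these changes were not tested.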
